A study of Mus musculus with 16 samples.

Results

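The interferon-stimulated genes examined here are 46 mouse genes that cells switch on when an interferon reaches them. They were taken by gene symbol from a list of 46, and rows with a mean of at least 0.5 FPKM (fragments per kilobase of transcript per set number of mapped fragments) in a table were kept. All 46 were found and kept among the livers taken at the end of injury, where 13715 genes were listed and 11928 had such a mean. After recovery 45 of the 46 were found and kept, among 12922 listed and 11032 kept genes, and Ddx58 was not analysed there. No member failed the limit on the mean: the lowest were Ddx60 at 1.325 FPKM in the first table and Oas3 at 0.7675 FPKM in the table after recovery. The list divides into 9 roles, from sensors of foreign nucleic acid to antiviral effectors, and the genes lie on 14 chromosomes.

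Interferons bind receptors whose kinases, Jak1, Jak2 and Tyk2, activate transcription factors in the cell. Stat2 and Irf9 act in a complex that binds the interferon-stimulated response element (ISRE), while interferon-gamma acts through the gamma-activated site (GAS). In the liver, hepatocytes, Kupffer cells, recruited monocytes and endothelium can all answer interferon, and the induced genes include more of the same sensors and transcription factors, so the response can feed itself.

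The livers came from Mfap2+/+ and Mfap2-/- mice, wild type and knockout for the gene of microfibril-associated glycoprotein-1, a protein of the extracellular fibres. All 16 animals received carbon tetrachloride (CCl4), a liver toxin that scars the organ, by intraperitoneal injection for 8 weeks. In 4 mice of each genotype the frozen liver was sequenced in bulk at 8 weeks, and in another 4 of each after 4 further weeks without CCl4, here called reversal. Every group thus had received the toxin, and no uninjured liver was analysed here. No source used here states the age, sex or strain of the mice or the kind of knockout allele. Mfap2 itself lay between 0.902 and 3.07 FPKM in the wild-type mice at 8 weeks and between 0.17 and 0.47 FPKM after reversal, and was listed at 0 in all 8 knockout mice. Albumin, the main hepatocyte transcript, lay between 16973 and 46316 FPKM at 8 weeks and between 16731 and 45495 FPKM after reversal, and all 10 hepatocyte markers were found in both tables, so the libraries carry a liver profile. The sequencing depth of the libraries is unknown. The tables of the stages were normalized separately and their summed FPKM differ, so genotypes were compared within a stage only. Stage and table cannot be told apart. The library kit may differ between the stages as well. Which kit each reversal library used is not stated, so kit may also differ between mice or genotypes there.

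Promoters were read first, since the response elements are what most of these genes are known to share. RefSeq promoters on GRCm38.p6, which run from 250 bases before to 50 bases after a RefSeq start of the gene, were found for 37 of the 46 members. The ISRE core was searched as the letters GAAA followed, after a gap of 2 or 3 bases of any kind, by GAAA again, and the GAS core as TTCNNNGAA, on both strands. An ISRE core stood in a promoter of 22 of the 37 members (59.5%), against 6.9% of 27025 genes with a promoter. A GAS core stood in 9 of the 37 (24.3%), against 9.55% of all genes, and 6 members had both and 12 neither. The promoters of 6 members are shown, the gene with the highest mean FPKM at 8 weeks in each of 6 roles, to let the spacing of these letters be seen. Each is written 5′ to 3′ along the gene, with every ISRE or GAS core in capitals.
Oas1a: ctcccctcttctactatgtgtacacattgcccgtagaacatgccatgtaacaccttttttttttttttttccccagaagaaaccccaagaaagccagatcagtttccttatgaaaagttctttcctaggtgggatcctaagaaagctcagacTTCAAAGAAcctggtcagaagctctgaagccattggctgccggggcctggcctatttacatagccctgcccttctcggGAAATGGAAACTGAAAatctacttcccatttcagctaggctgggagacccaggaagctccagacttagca
Bst2: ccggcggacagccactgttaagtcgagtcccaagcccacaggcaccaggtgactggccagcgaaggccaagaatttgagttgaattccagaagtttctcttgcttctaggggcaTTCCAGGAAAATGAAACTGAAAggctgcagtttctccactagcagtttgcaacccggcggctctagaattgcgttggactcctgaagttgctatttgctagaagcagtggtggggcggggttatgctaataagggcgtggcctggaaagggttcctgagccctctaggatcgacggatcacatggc
Isg15: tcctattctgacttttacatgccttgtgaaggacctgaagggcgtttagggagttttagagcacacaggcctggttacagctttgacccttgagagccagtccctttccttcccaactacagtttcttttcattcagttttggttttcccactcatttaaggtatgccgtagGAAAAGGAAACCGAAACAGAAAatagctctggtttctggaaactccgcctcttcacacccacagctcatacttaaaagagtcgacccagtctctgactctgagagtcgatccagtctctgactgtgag
Irgm1: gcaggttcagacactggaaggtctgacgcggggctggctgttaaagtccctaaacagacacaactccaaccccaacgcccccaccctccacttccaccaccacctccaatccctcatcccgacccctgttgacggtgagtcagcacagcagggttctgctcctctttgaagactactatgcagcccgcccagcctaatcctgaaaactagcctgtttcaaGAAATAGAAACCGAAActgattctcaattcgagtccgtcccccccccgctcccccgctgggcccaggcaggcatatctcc
Psmb8: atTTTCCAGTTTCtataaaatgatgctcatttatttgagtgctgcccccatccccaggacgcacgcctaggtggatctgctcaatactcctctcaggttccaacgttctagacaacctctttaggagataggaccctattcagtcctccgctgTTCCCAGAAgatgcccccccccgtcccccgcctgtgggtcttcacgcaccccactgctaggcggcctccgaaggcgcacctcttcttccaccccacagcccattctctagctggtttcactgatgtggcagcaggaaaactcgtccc
Irf7: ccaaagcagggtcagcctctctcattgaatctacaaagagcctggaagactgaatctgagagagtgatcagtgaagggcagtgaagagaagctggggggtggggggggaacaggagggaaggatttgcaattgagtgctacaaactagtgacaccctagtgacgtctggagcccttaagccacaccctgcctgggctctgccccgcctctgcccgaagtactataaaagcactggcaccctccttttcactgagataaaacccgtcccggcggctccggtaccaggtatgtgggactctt

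The Oas1a window is chr5:120907476-120907775, minus strand, that of Bst2 is chr8:71537423-71537722, minus strand, and that of Isg15 is chr4:156200769-156201068, minus strand. The Irgm1 window is chr11:48871371-48871670, minus strand, that of Psmb8 is chr17:34197945-34198244, plus strand, and that of Irf7 is chr7:141266375-141266674, minus strand. In Isg15, 3 overlapping ISRE cores form 1 run of capitals that begins 78 bases before the start. In Oas1a and Irgm1 a pair of overlapping ISRE cores begins 20 and 30 bases before the start. The capitals of Bst2 begin 136 bases before the start with a GAS core that runs into 2 ISRE cores. Psmb8 has an ISRE core on the other strand 248 bases before the start, and Psmb8 and Oas1a each have a GAS core apart from it, 97 and 98 bases before the start. Irf7 has neither set of letters in this window. By the GENCODE annotation used for gene positions, Psmb8 begins at chr17:34197721 and Irgm1 at chr11:48871683. The windows of these genes thus lie inside them, and the distances given count from a RefSeq start. A match of letters is not a measured binding site.

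At 8 weeks all 46 members were higher in the knockout, where 82.6% of all genes tested were also higher. The median log2 difference, on the scale of log2(FPKM + 1), was 0.77 for the members and 0.23 for all 11928 genes. This scale understates the change of genes with low FPKM. In limma's test with Benjamini-Hochberg adjustment over all genes, 0 of the 46 passed an adjusted p of 0.05, where 1 gene in all passed (0.00838%). At an unadjusted p under 0.05, 41 of the 46 members were higher, against 12.8% of all genes. For 20 members the 4 knockout values all lay above the 4 wild-type values, which held for 6.29% of all genes. The smallest adjusted p among the members was 0.082, for Oas1a and Oasl2.

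The excess in the knockout depended on how the libraries were scaled, for the members as for all genes. After median-ratio scaling the share of all genes that were higher was 49.1% and their median -0.01, and 45 of the 46 members were still higher with a median of 0.51 in place of 0.77. Quantile normalization gave 45 of 46 and a median of 0.59, beside 49.1% of all genes. The members without overlap then numbered 4 and 8, in place of 20, beside 3.18% and 2.98% of all genes. Without wild-type mice 1 and 2, which stood apart from the other libraries on the first principal component and by albumin, 57.1% of all genes and 46 of 46 members were higher, with medians of 0.04 and 0.81.

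Single mice decided how many members passed the adjusted threshold. Without wild-type mouse 4, 14 members passed limma's adjusted p of 0.05, all higher in the knockout, where 10.4% of all genes did. They were Oasl2, Oas1a, Oasl1, Oas3, Xaf1, Rtp4, Dhx58, Isg15, Irf7, Eif2ak2, Gbp2, Parp14, Lgals3bp and Trim30a. Without knockout mouse 2, 7 members passed, where 28 genes in all (0.234%) were called higher. These were Isg15, Oasl2, Ifit1, Oas1a, Oas3, Trim30a and Cmpk2, and 34 members then had groups without overlap, against 12.4% of all genes. Leaving out any other single mouse left 0 members past the threshold. On the first principal component wild-type mouse 4 lay at -29.8, inside the range of the knockout mice (-37.98 to 1.19), and the other wild-type mice lay between 10.4 and 49.4.

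The excess was not even among the knockout mice. As a score, the mean over the members of log2(FPKM + 1) less each gene's mean over the 8 mice was taken. It was -0.38, -0.39, -0.57 and -0.37 in wild-type mice 1 to 4, and 0.09, -0.15, 0.96 and 0.83 in knockout mice 1 to 4. Knockout mice 3 and 4 stood far above the rest, while knockout mice 1 and 2 lay closer to the wild type. The same score over all genes was 0.10, -0.01, 0.28 and 0.07 in the knockout mice, so it did not separate mouse 4 from mouse 1.

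Median-ratio scaling moved the 2 lower knockout mice into the range of the wild type. The scores were then -0.06, -0.02, -0.58 and -0.48 in wild-type mice and -0.03, -0.14, 0.58 and 0.73 in knockout mice. Knockout mice 1 and 2 overlapped the wild type, and knockout mice 3 and 4 remained the 2 highest. Wild-type mice 3 and 4 were the 2 lowest after this scaling, below wild-type mice 1 and 2.

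**Figure D1:**
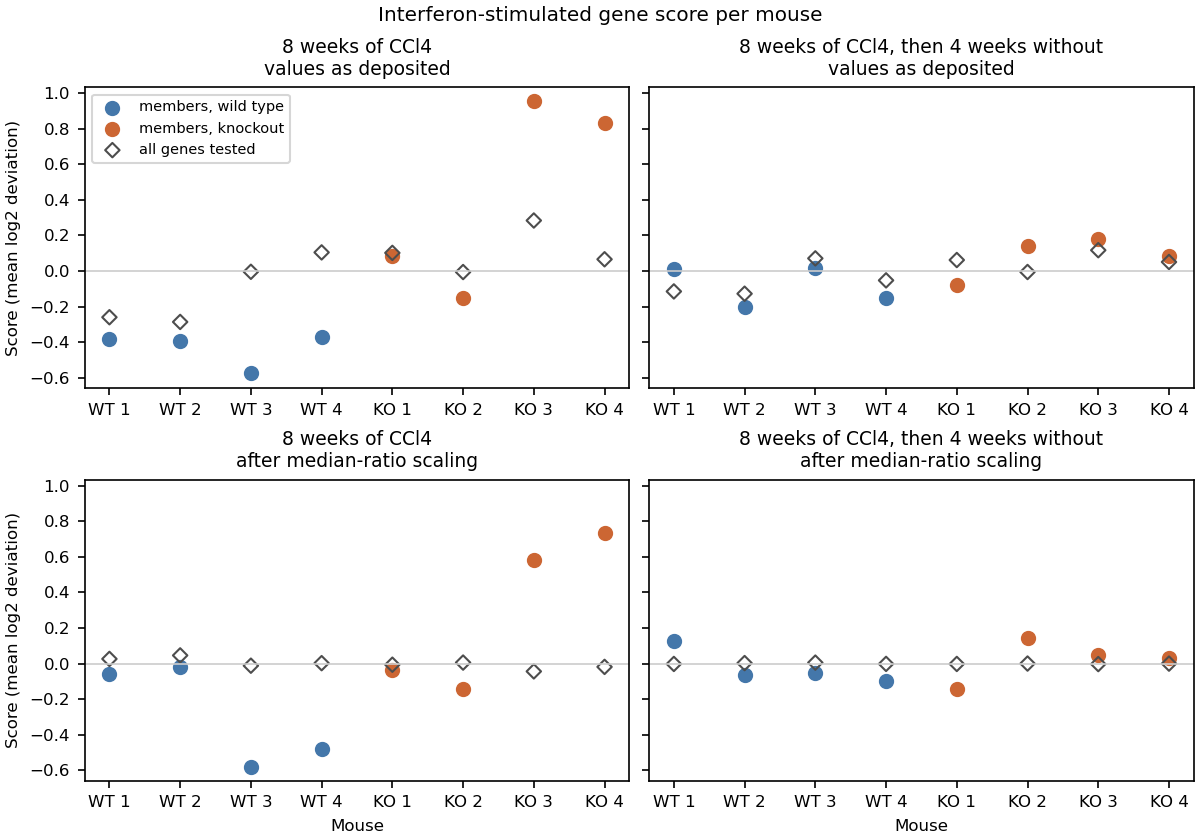
Score of the interferon-stimulated genes in each mouse (filled points; y axis, mean over the members of log2(FPKM + 1) less the gene's mean over the 8 mice of a table), with the same score over all genes tested (open diamonds), at 8 weeks (left) and after reversal (right), as deposited (top) and after median-ratio scaling (bottom). Knockout mice 3 and 4 at 8 weeks stand at 0.96 and 0.83 as deposited and at 0.58 and 0.73 after scaling, and no mouse after reversal exceeds 0.18.

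Counted gene by gene, knockout mice 3 and 4 held the 2 highest of the 8 values for 41 of the 46 members, against 16.7% of all genes. The highest value was that of knockout mouse 3 for 27 members and of knockout mouse 4 for 19. No wild-type mouse was among the 2 highest for any member. Relative to the wild-type mean, the median member stood at 1.41-fold in knockout mouse 1, at 1.21-fold in mouse 2, at 3.02-fold in mouse 3 and at 2.69-fold in mouse 4. Over all genes the same medians were 1.18, 1.05, 1.36 and 1.15. Among the members, 35, 23, 45 and 44 exceeded every wild-type mouse in knockout mice 1 to 4, and of all genes 27.6%, 15.3%, 50.3% and 31.3% did. The exceptions in mouse 4 were Bst2, where wild-type mouse 2 stood higher, and Gbp7, with the lowest value of all 8 mice there (0.527 FPKM) and the highest in mouse 3 (6.99 FPKM).

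**Figure D2:**
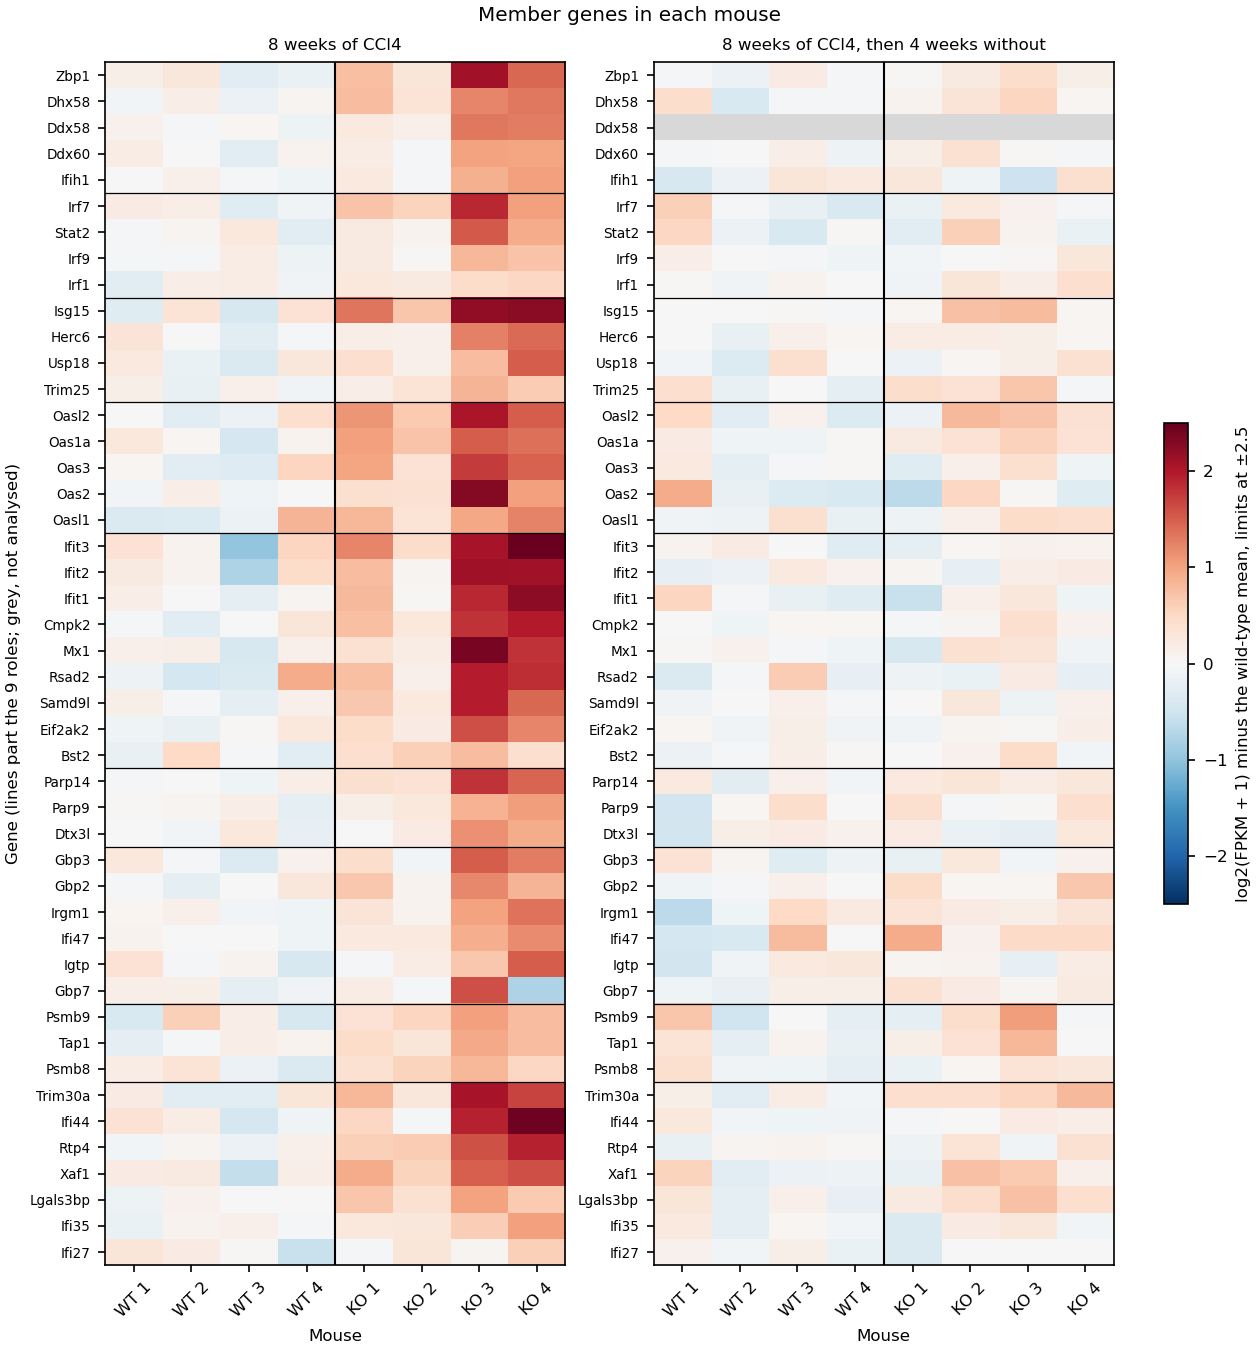
Each row is a member and each column a mouse, and the colour gives log2(FPKM + 1) less the wild-type mean of that table (red, higher; blue, lower; limits at ±2.5), at 8 weeks (left) and after reversal (right), with rows in the order of the 8-week difference within each role. The columns of knockout mice 3 and 4 at 8 weeks are red in nearly every row, with Gbp7 in mouse 4 blue, and the reversal panel has no such columns.

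The values per mouse follow, by role, in the order of mouse 1 to 4 in each genotype, for the 2 members of each role with the highest mean FPKM at 8 weeks. Of the 46 members 17 overlap another annotated gene, among them Irf7 (Phrf1), Irf9 (Rnf31) and Rtp4 (Masp1), and their values may include reads of that gene. RNA from whole liver was measured, so more cells that express a gene and more RNA per cell cannot be told apart.

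Sensors of nucleic acid were higher for 5 of 5 genes, each at an unadjusted p under 0.05, with a median log2 difference of 0.75. Zbp1, which senses Z-form nucleic acid and can start necroptosis, stood at 11.1, 12.4, 8.17 and 8.74 FPKM in wild-type and 17.6, 12.6, 45.9 and 28.8 FPKM in knockout mice. Knockout mouse 3 was highest, knockout mouse 2 barely above the wild type, and the groups did not overlap. The means were 10.1 ± 1.99 and 26.2 ± 14.75 FPKM (SD, n = 4), an estimate of 1.15 ± 0.33 on the log2 scale (SE; adjusted p = 0.159 by limma). Ddx58 (RIG-I), a sensor of viral RNA in the cytosol, stood at 7.94, 7.06, 7.565 and 6.605 FPKM in wild-type and 8.86, 8.085, 19.6 and 19.1 FPKM in knockout mice. Its groups did not overlap, and knockout mice 1 and 2 were near the wild type. This gave an estimate of 0.75 ± 0.27 on the log2 scale (SE; adjusted p = 0.236 by limma). Dhx58 (LGP2), which tunes the other RNA helicases, was 2.11-fold higher without overlap, while Ifih1 (MDA5) and Ddx60, also RNA helicases, were 1.60-fold and 2.13-fold higher with overlap.

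Transcription factors of the response were higher for 4 of 4, and Irf7 and Stat2 had an unadjusted p under 0.05. Irf7, which drives the amplified production of type I interferon, stood at 72.6, 69.98, 50.9 and 59.2 FPKM in wild-type and 102.5, 92.8, 233 and 127.5 FPKM in knockout mice. Every knockout value exceeded every wild-type value, and knockout mouse 3 stood well above its group. The means were 63.2 ± 10.05 and 139 ± 64.2 FPKM (SD, n = 4), an estimate of 1.04 ± 0.27 on the log2 scale (SE; adjusted p = 0.135 by limma). Irf1, a factor induced by interferon-gamma, differed less, at 11.35, 15.8, 16.1 and 13.1 FPKM in wild-type and 16.9, 16.6, 19.5 and 20.5 FPKM in knockout mice. The groups did not overlap, and the knockout mice differed little among themselves. This gave an estimate of 0.37 ± 0.20 on the log2 scale (SE; adjusted p = 0.412 by limma). The estimate for Irf1 fell to 0.08 after median-ratio scaling and to 0.16 after quantile normalization. Stat2 and Irf9, which act in the ISRE-binding complex, had means 1.81-fold and 1.43-fold those of the wild type, with overlap.

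The ISG15 group holds the ubiquitin-like modifier and enzymes that attach or remove it or ubiquitin. All 4 genes were higher at an unadjusted p under 0.05. Isg15, the modifier itself, had the largest log2 difference of the members, at 20.5, 32.6, 18.95 and 32.9 FPKM in wild-type and 65.7, 41.8, 122 and 126 FPKM in knockout mice. All 4 knockout mice lay above the wild type, and mice 3 and 4 were about alike and highest. The means were 26.2 ± 7.56 and 88.9 ± 41.8 FPKM (SD, n = 4), a ratio of 3.39, with an estimate of 1.63 ± 0.34 on the log2 scale (SE; adjusted p = 0.093 by limma). Usp18, which removes Isg15 from proteins and dampens signalling at the type I receptor, stood at 18.8, 13.9, 11.99 and 19.3 FPKM in wild-type and 21.5, 17.25, 27.5 and 46.4 FPKM in knockout mice. Knockout mouse 2 lay within the wild-type range and knockout mouse 4 was highest, with an estimate of 0.71 ± 0.28 on the log2 scale (SE; adjusted p = 0.269 by limma). Herc6, the main ligase for ISG15 in the mouse, was 2.21-fold higher with overlap, and Trim25, a ubiquitin ligase, 1.46-fold without.

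Oligoadenylate synthetases sense double-stranded RNA, and the active enzymes of the family make the messenger that activates RNase L. All 5 genes of the family on the list were higher, each at an unadjusted p under 0.05, and the median log2 difference was 1.15. Oas1a stood at 16.1, 13.7, 9.65 and 14.15 FPKM in wild-type and 27.8, 22.2, 39.7 and 35.9 FPKM in knockout mice. The lowest knockout mouse was above the highest wild-type mouse, with means of 13.4 ± 2.70 and 31.4 ± 7.88 FPKM (SD, n = 4). It had an estimate of 1.16 ± 0.23 on the log2 scale (SE; adjusted p = 0.082 by limma), and over the 16 alternatives the limma adjusted p ran from 0.00254 to 0.477. Oasl1, a family member that represses translation of Irf7 mRNA in the mouse, stood at 9.67, 9.76, 11.35 and 23.5 FPKM in wild-type and 23.4, 16.2, 25.7 and 31.2 FPKM in knockout mice. Wild-type mouse 4 lay inside the knockout range and set the overlap, and the result was an estimate of 0.84 ± 0.28 on the log2 scale (SE; adjusted p = 0.197 by limma). Oasl2 was 2.80-fold higher and Oas2 2.72-fold, both without overlap, and Oas3 2.82-fold with overlap by wild-type mouse 4. Oas1a has near-identical neighbours among the Oas1 genes, so reads may have been divided between them.

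The other antiviral effectors were higher for 9 of 9, each at an unadjusted p under 0.05, with the largest median difference of the roles (1.18). Their groups overlapped for 7 of the 9, and Mx1 and Samd9l were those without overlap. Bst2 (tetherin), which holds budding virus at the cell surface, was the most abundant member and stood at 164, 267, 185 and 154 FPKM in wild-type and 253.5, 285, 319.9 and 252 FPKM in knockout mice. Wild-type mouse 2 lay inside the knockout range, and the gene had an estimate of 0.55 ± 0.23 on the log2 scale (SE; adjusted p = 0.302 by limma). Ifit3, of the family that binds foreign RNA, stood at 20.1, 16.7, 7.41 and 22.9 FPKM in wild-type and 37.5, 21.85, 67.9 and 90.4 FPKM in knockout mice. Wild-type mouse 3 was low, knockout mouse 2 lay inside the wild-type range, and knockout mice 3 and 4 stood far above. The means were 16.8 ± 6.75 and 54.4 ± 30.7 FPKM (SD, n = 4), a ratio of 3.24, with an estimate of 1.55 ± 0.46 on the log2 scale (SE; adjusted p = 0.19 by limma). Mx1, a dynamin-like GTPase against influenza virus, had the largest ratio of means of the members, 3.76, from 1.72 ± 0.462 to 6.47 ± 5.19 FPKM (SD, n = 4). Ifit1, Ifit2, Rsad2 (viperin), Cmpk2, Samd9l and the kinase Eif2ak2 (PKR) had ratios between 2.32 and 3.30. Ifit1 and Ifit3 have close paralogs beside them on the chromosome, so their counts are uncertain in the same way.

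**Figure D3:**
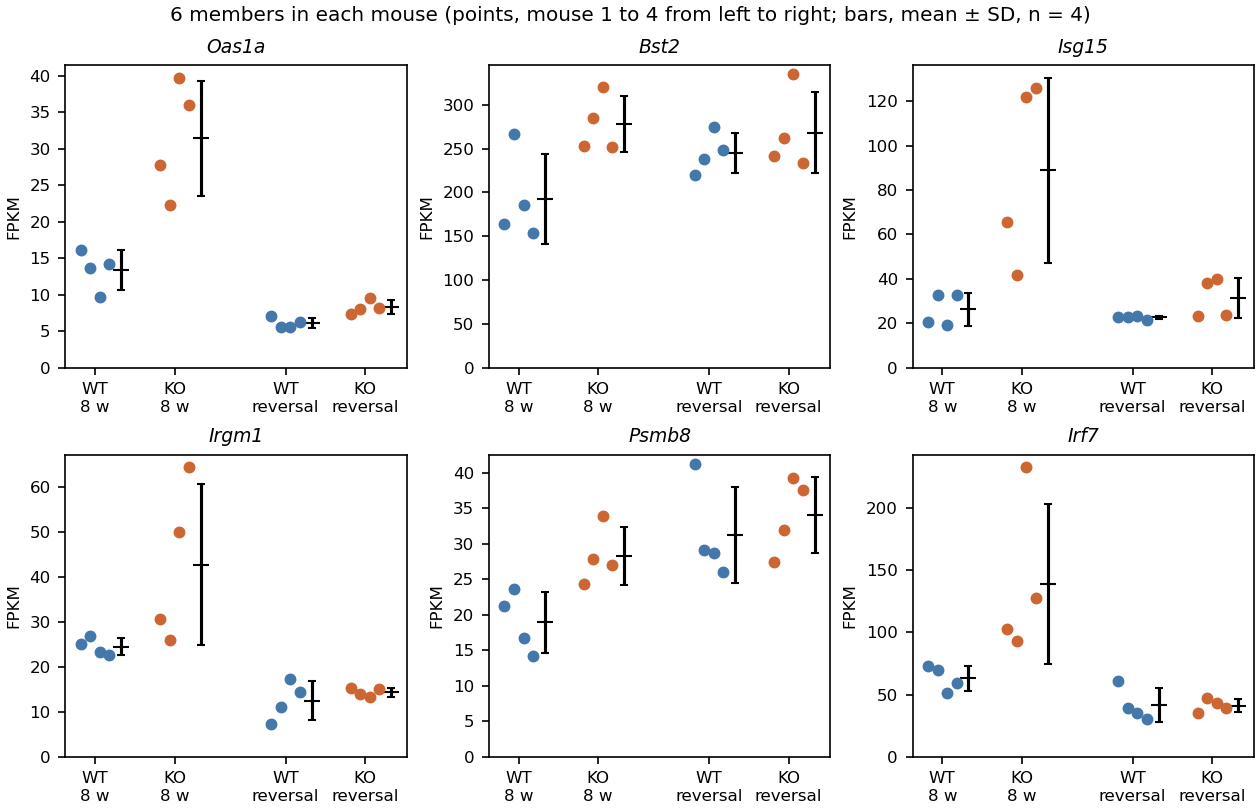
FPKM (y axis, from 0) in each mouse for the 6 members whose promoters are printed, in wild type (blue) and knockout (orange) at 8 weeks and after reversal, with bars at the mean ± SD (n = 4). At 8 weeks Isg15 reaches 122 and 126 FPKM in knockout mice 3 and 4 against at most 32.9 FPKM in the wild type, while Bst2 overlaps between genotypes at both stages.

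Genes of ADP-ribosylation were higher for 3 of 3, each at an unadjusted p under 0.05. Parp9, the partner of Dtx3l in a complex that promotes interferon signalling, stood at 10.2, 10.4, 11.2 and 8.24 FPKM in wild-type and 11.1, 12.2, 18.9 and 21.6 FPKM in knockout mice. Knockout mouse 1 lay inside the wild-type range, with an estimate of 0.58 ± 0.24 on the log2 scale (SE; adjusted p = 0.284 by limma). Parp14 stood at 5.245, 5.415, 5.03 and 6.29 FPKM in wild-type and 7.515, 7.31, 21.7 and 16.8 FPKM in knockout mice. Knockout mice 1 and 2 were just above the wild type and mouse 3 highest, with an estimate of 1.01 ± 0.30 on the log2 scale (SE; adjusted p = 0.174 by limma). Parp9 and Dtx3l overlap on opposite strands of chromosome 16, from base 35938470 to base 35939151. The strand setting of the counting is not given in the sources used here, so reads in that stretch cannot be told apart.

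Interferon-gamma inducible GTPases, which take part in defence against intracellular microbes, were higher for 6 of 6, of which 4 had an unadjusted p under 0.05. Irgm1 stood at 25.1, 26.8, 23.2 and 22.6 FPKM in wild-type and 30.65, 25.9, 50.05 and 64.3 FPKM in knockout mice. Knockout mouse 2 lay inside the wild-type range and mouse 4 was highest, with an estimate of 0.69 ± 0.26 on the log2 scale (SE; adjusted p = 0.251 by limma). Igtp (Irgm3) stood at 24.8, 18.35, 20.25 and 14.1 FPKM in wild-type and 18.4, 21.7, 31.01 and 55.9 FPKM in knockout mice. Knockout mice 1 and 2 lay inside the wild-type range, so the excess rested on mice 3 and 4, with an estimate of 0.58 ± 0.30 on the log2 scale (SE; adjusted p = 0.4 by limma). Igtp overlaps Irgm2, and Ifi47 overlaps Olfr56, on the same strand. Gbp2, Gbp3 and Ifi47 had ratios of means of 1.80, 2.06 and 1.67. Gbp7 had a log2 difference of 0.24 ± 0.41 (SE), which turned negative without knockout mouse 3 and after quantile normalization, with values down to -0.22.

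Antigen processing genes were higher for 3 of 3, each at an unadjusted p under 0.05. Psmb8, a catalytic subunit of the immunoproteasome, stood at 21.2, 23.6, 16.7 and 14.1 FPKM in wild-type and 24.4, 27.9, 33.95 and 26.9 FPKM in knockout mice. The groups were close and did not overlap, with an estimate of 0.57 ± 0.22 on the log2 scale (SE; adjusted p = 0.248 by limma). Tap1, a subunit of the peptide transporter that serves MHC class I, stood at 10.7, 12.4, 14.4 and 13.6 FPKM in wild-type and 17.9, 15.9, 25.3 and 22.3 FPKM in knockout mice. The groups did not overlap, with an estimate of 0.62 ± 0.21 on the log2 scale (SE; adjusted p = 0.204 by limma). In this role knockout mice 1 and 2 were nearer to mice 3 and 4 than in the others: the role's score was 0.09, 0.16, 0.62 and 0.37 in knockout mice 1 to 4, against 0.13, -0.32, 1.28 and 1.16 for the antiviral effectors. Psmb9 overlaps Tap1 on the other strand.

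Of the 7 remaining members all were higher and 6 had an unadjusted p under 0.05. Ifi27, a small membrane protein and the most abundant of these, was the exception, at 169, 159, 140 and 92.7 FPKM in wild-type and 134, 169.6, 143 and 206 FPKM in knockout mice. The groups overlapped widely, the log2 difference was 0.24 ± 0.25 (SE; adjusted p = 0.609 by limma), and it was -0.07 after median-ratio scaling. Lgals3bp, a secreted galectin-binding glycoprotein, stood at 62.4, 73.6, 68.6 and 68.05 FPKM in wild-type and 111, 88.6, 137 and 107 FPKM in knockout mice. All knockout mice exceeded the wild type, with an estimate of 0.68 ± 0.21 on the log2 scale (SE; adjusted p = 0.175 by limma). Ifi44, Trim30a, Rtp4 and Xaf1 had ratios between 2.44 and 3.31, and Ifi35 a ratio of 1.52.

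The members' differences at 8 weeks were set beside their promoter letters as a description. The 22 members with an ISRE core had a median log2 difference of 0.77 (0.24 to 1.63), and the 15 without had 0.67 (0.37 to 1.33). Isg15, with 3 overlapping cores, had the largest difference, and Irf7, with none in the printed window, had 1.04. The 9 members with a GAS core had a median of 0.57, and the 28 without had 0.77. The ranges overlap.

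Neighbouring members were compared likewise. With a gap of at most 200 kb, 19 members fall into 7 clusters. The Ifit2, Ifit3 and Ifit1 cluster (chr19:34550694-34650009, mm10) had log2 differences of 1.27, 1.55 and 1.24. The Gbp7, Gbp3 and Gbp2 cluster (chr3:142530342-142638008) had 0.24, 0.79 and 0.70, and the Psmb9, Tap1 and Psmb8 cluster (chr17:34181987-34201454) had 0.67, 0.62 and 0.57. Oasl2 and Oasl1 (chr5:114896936-114937915) had 1.33 and 0.84.

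After reversal the members lay at the general level of genes. Of 45 members 41 were higher in the knockout, where 70.7% of all genes were, and the median log2 difference was 0.13 against 0.10 for all 11032 genes. In limma's test 0 of 45 passed an adjusted p of 0.05, as did 0 of all genes (0%), and 3 members were higher at an unadjusted p under 0.05, against 6.95% of all genes. The groups did not overlap, with the knockout higher, for 3 members, against 3.62% of all genes. After median-ratio scaling 22 of 45 were higher and after quantile normalization 23 of 45, with 49.5% and 47.6% of all genes. The direction of 25 of the 45 members changed under at least 1 of the alternatives run, 15 or 16 for each member, so no direction is given for most of them.

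The score per mouse was 0.01, -0.20, 0.02 and -0.15 in wild-type and -0.08, 0.14, 0.18 and 0.08 in knockout mice. The genotypes overlapped, since knockout mouse 1 lay below wild-type mice 1 and 3. Wild-type mouse 1 and knockout mice 2 and 3 had the largest shares of mitochondrial transcripts (38.1%, 32.4% and 37.5%, against 23.5% to 29.8% in the others) and stood apart on the first principal component. Without these 3 mice 34 of 45 members and 67.1% of all genes were higher, with medians of 0.10 and 0.09, and 10 members did not overlap, against 17.9% of all genes.

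The members with groups apart or an unadjusted p under 0.05 after reversal were Oas1a, Trim30a, Isg15 and Lgals3bp, named after their values were seen. Oas1a stood at 7.11, 5.54, 5.56 and 6.18 FPKM in wild-type and 7.28, 8.08, 9.57 and 8.11 FPKM in knockout mice. All knockout mice lay above the wild type, by a small margin, with an estimate of 0.38 ± 0.14 on the log2 scale (SE; adjusted p = 0.548 by limma). Trim30a, a regulator of inflammatory signalling, stood at 1.9, 1.17, 1.99 and 1.51 FPKM in wild-type and 2.49, 2.52, 2.82 and 3.6 FPKM in knockout mice. Its groups did not overlap either, with an estimate of 0.55 ± 0.16 on the log2 scale (SE; adjusted p = 0.499 by limma). Isg15 stood at 22.9, 22.65, 23.1 and 21.6 FPKM in wild-type and 23.3, 38.2, 39.8 and 23.5 FPKM in knockout mice. Knockout mice 1 and 4 were almost at the wild-type level and mice 2 and 3 above it, with an estimate of 0.41 ± 0.20 on the log2 scale (SE; adjusted p = 0.62 by limma). Lgals3bp stood at 56.5, 38.95, 49.97 and 39.3 FPKM in wild-type and 53.2, 61.97, 76.75 and 61.5 FPKM in knockout mice. Knockout mouse 1 lay inside the wild-type range, with an estimate of 0.45 ± 0.18 on the log2 scale (SE; adjusted p = 0.558 by limma).

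Oasl2 and Ifi47 had differences of like size after reversal, with overlap. Oasl2 stood at 7.62, 4.06, 5.58 and 3.83 FPKM in wild-type and 4.49, 9.67, 8.97 and 6.92 FPKM in knockout mice, with an estimate of 0.43 ± 0.25 on the log2 scale (SE; adjusted p = 0.672 by limma). Ifi47 stood at 5.19, 5.45, 13.5 and 7.41 FPKM in wild-type and 14.9, 7.98, 10.65 and 10.6 FPKM in knockout mice, with an estimate of 0.50 ± 0.28 on the log2 scale (SE; adjusted p = 0.663 by limma). Wild-type mice 1 and 3 were inside the knockout range for Oasl2, and wild-type mouse 3 was for Ifi47.

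Other members described above had smaller differences after reversal. Ifit3 stood at 14.1, 15.4, 13.3 and 10.6 FPKM in wild-type and 11.2, 13.7, 14.3 and 14.1 FPKM in knockout mice, with an estimate of 0.00 ± 0.16 on the log2 scale (SE; adjusted p = 0.998 by limma). Irf7 stood at 61.03, 38.99, 34.8 and 30.2 FPKM in wild-type and 35.4, 47.2, 43.2 and 38.8 FPKM in knockout mice, with an estimate of 0.04 ± 0.22 on the log2 scale (SE; adjusted p = 0.98 by limma). For both genes the groups overlapped, wild-type mouse 1 had the highest Irf7, and the sign of the difference turned under several alternatives. Zbp1 stood at 20.1, 18.5, 23.6 and 20.1 FPKM in wild-type and 21.01, 23.98, 28.2 and 22.8 FPKM in knockout mice, and Bst2 at 219.8, 239, 275 and 248 FPKM in wild-type and 242, 262, 335.5 and 233 FPKM in knockout mice. Usp18 stood at 7.01, 5.66, 10.2 and 7.4 FPKM in wild-type and 6.63, 7.69, 8.31 and 9.91 FPKM in knockout mice, and Irgm1 at 7.19, 10.97, 17.3 and 14.35 FPKM in wild-type and 15.3, 13.9, 13.2 and 15.1 FPKM in knockout mice. Psmb8 stood at 41.2, 29.1, 28.7 and 26.1 FPKM in wild-type and 27.4, 31.9, 39.3 and 37.6 FPKM in knockout mice. In all 5 genes the groups overlapped. Irf1, Oasl1, Parp9, Parp14, Igtp, Tap1 and Ifi27 also overlapped, with log2 differences between -0.09 for Ifi27 and 0.33 for Tap1.

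**Figure D4:**
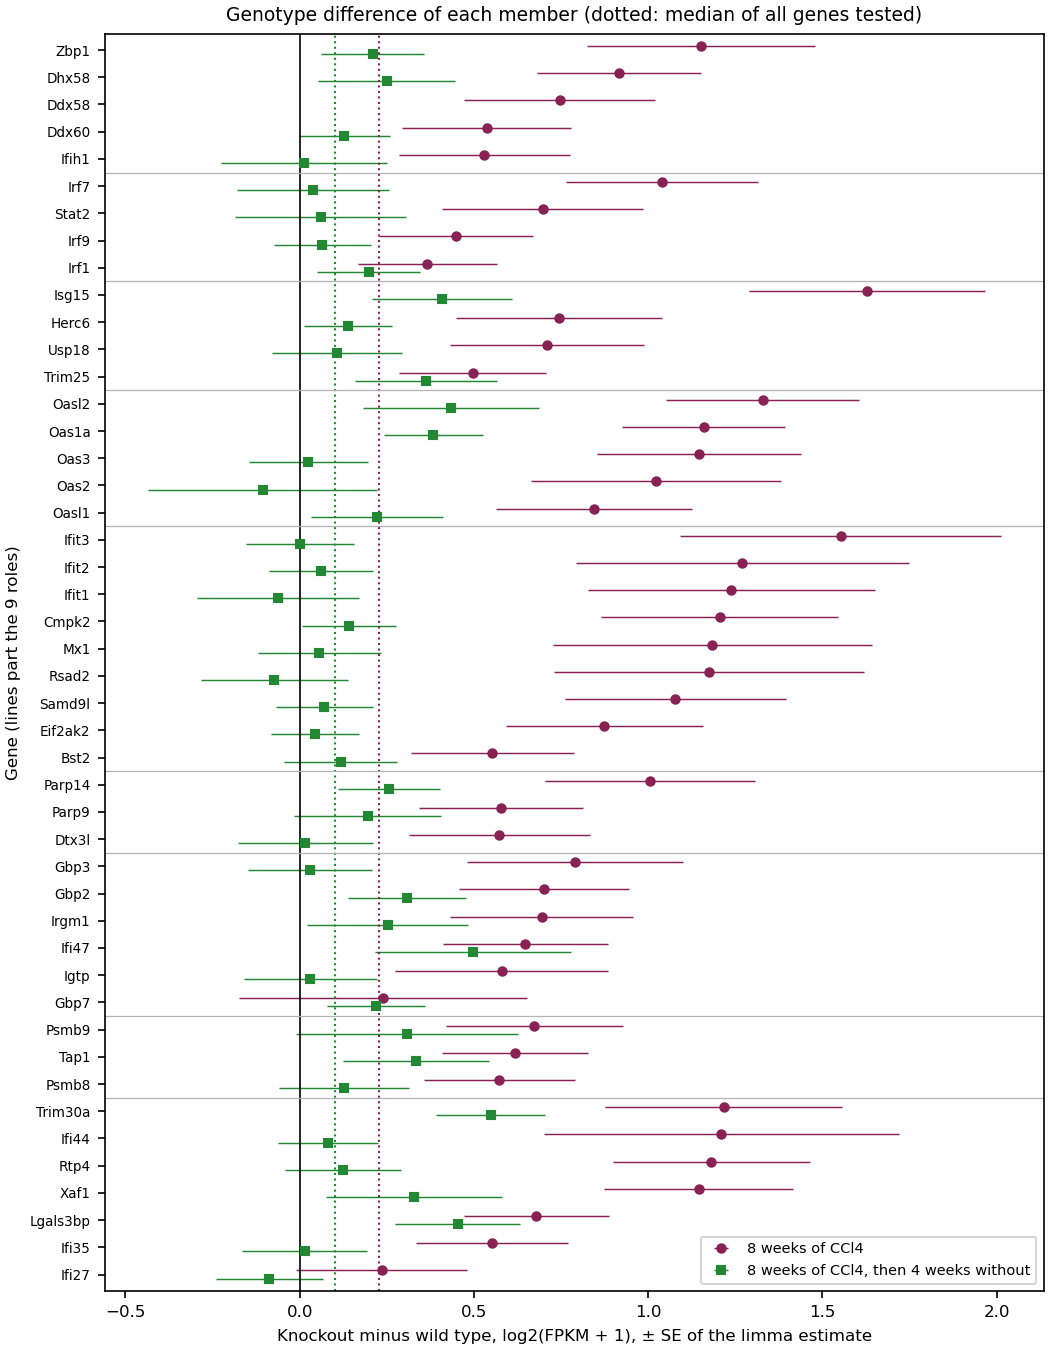
Knockout minus wild type on the log2(FPKM + 1) scale for each member (x axis; points, limma estimate; bars, ± SE), at 8 weeks (circles) and after reversal (squares), with the median of all genes tested at each stage as a dotted line (0.23 and 0.10). At 8 weeks the members range from 0.24 to 1.63, and after reversal from -0.11 to 0.55.

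The difference between the genotype effects of the stages was tested itself, for 10647 genes measured at both, as an interaction term. All 45 members had a smaller knockout effect after reversal, as did 69.2% of all genes, with a median change of -0.64 against -0.12. In limma's test 0 members passed an adjusted p of 0.05, where 0% of all genes did, and each member's adjusted p was 1. At an unadjusted p under 0.05, 19 of 45 had a smaller effect, against 2% of all genes. These included 8 of 9 antiviral effectors and 4 of the 5 listed genes of the oligoadenylate synthetase family. Among them were 0 of 6 GTPases, 0 of 3 antigen processing genes and 0 of 3 ADP-ribosylation genes. For Ifit3 the effect went from 1.55 to 0.00, an interaction of -1.55 ± 0.49 (SE), and for Isg15 from 1.63 to 0.41, an interaction of -1.22 ± 0.42 (SE). Both stages have their own mice, tables and libraries.

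The genes that act before the members were looked at next. None of the 13 interferon genes on the list of ligands was analysed here, at either stage. Of the receptors and kinases, 8 were tested and 8 were higher at 8 weeks, against 82.6% of all genes, with a median log2 difference of 0.41. At an unadjusted p under 0.05 in limma's test 3 were higher, against 12.8% of all genes. The groups did not overlap for 0 of the 8, against 6.29%. Ifnar1, a chain of the type I receptor, stood at 9.10, 6.94, 10.7 and 12.8 FPKM in wild-type and 12.8, 9.935, 19.04 and 11.15 FPKM in knockout mice at 8 weeks. Knockout mouse 3 was highest and the others overlapped. Ifnar2, the other chain, had means of 49.02 ± 9.46 and 49.4 ± 2.27 FPKM (SD, n = 4) at 8 weeks. After reversal 8 of the 8 receptors and kinases were higher, against 70.7% of all genes, with a median of 0.23 against 0.10. At an unadjusted p under 0.05 in limma's test 2 were higher, against 6.95%, and 1 had groups without overlap, against 3.62%.

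Of the genes that sense nucleic acids, pass the signal on to interferon genes or limit it, 18 were tested at 8 weeks. The knockout was higher for 15, near the share of all genes (82.6%), with a median of 0.54. At an unadjusted p under 0.05 this held for 11, against 12.8% of all genes, and without overlap for 2, against 6.29%. Their score was -0.33, -0.43, -0.28 and 0.02 in wild-type and 0.19, -0.05, 0.61 and 0.28 in knockout mice, so knockout mice 3 and 4 were the 2 highest here too. The genes without overlap were Aim2, a sensor of DNA in the cytosol, and Adar, which edits double-stranded RNA. Adar stood at 4.86, 4.74, 5.52 and 6.755 FPKM in wild-type and 8.36, 6.765, 14.3 and 12.9 FPKM in knockout mice, with an estimate of 0.80 ± 0.24 on the log2 scale (SE; adjusted p = 0.174 by limma). The adaptor Mavs and the factor Irf3 had log2 differences of -0.02 and -0.07. After reversal 14 of 16 were higher, beside 70.7% of all genes, with a median of 0.20.

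Interferon-induced genes outside the 46 followed the same mice. On another list 72 such genes were tested at 8 weeks, of which 71 were higher, against 82.6% of all genes. At an unadjusted p under 0.05 in limma's test 50 were higher, against 12.8% of all genes. For 27 the groups did not overlap, against 6.29%, and the median of the list was 0.70, against 0.23. Their score was -0.34, -0.34, -0.48 and -0.27 in wild-type mice and 0.12, -0.09, 0.80 and 0.59 in knockout mice, so mice 3 and 4 were again the 2 highest. Cxcl10, a chemokine that draws T cells, stood at 5.89, 3.715, 5.87 and 11.6 FPKM in wild-type and 16.3, 7.67, 23.9 and 27.7 FPKM in knockout mice. Wild-type mouse 4 overlapped knockout mouse 2, and knockout mice 3 and 4 were highest. After reversal 60 of 74 were higher with a median of 0.16, beside 70.7% of all genes. The groups did not overlap for 4 of the 74, against 3.62% of all genes. Cxcl10 was 1 of these, and no gene of the list had a smaller adjusted p. Cxcl10 then stood at 2.73, 5.57, 3.51 and 4.14 FPKM in wild-type and 6.42, 7.05, 9.15 and 6.05 FPKM in knockout mice, without overlap, with an estimate of 0.73 ± 0.20 on the log2 scale (SE; adjusted p = 0.499 by limma). Of the negative regulators 6 of 7 were higher at 8 weeks, with a median of 0.45, and 6 of 8 after reversal. Both counts were near the shares of all genes (82.6% and 70.7%). Socs3 had at reversal 4.01, 3.93, 4.79 and 4.2 FPKM in wild-type and 12.1, 12.9, 10.2 and 6.98 FPKM in knockout mice, with an estimate of 1.11 ± 0.19 on the log2 scale (SE; adjusted p = 0.232 by limma). Socs3 was the only 1 of the 8 regulators without overlap there, and none had a smaller adjusted p. It is a feedback inhibitor induced by interleukin-6 as well as by interferons.

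In the values as deposited, markers of several other cell types differed between genotypes at 8 weeks, though not all with the same mice. These lists were not rescaled. The score over all genes was itself higher in the knockout by 0.22 as deposited, and differed by -0.03 after median-ratio scaling. The differences for Kupffer cells (0.24), neutrophils (0.29) and B and plasma cells (0.21) lay near 0.22. For monocytes and recruited macrophages 15 of 16 markers were higher, with a median of 0.94, and their summed level was 813.6 to 1424 FPKM in wild-type and 1032 to 2043 FPKM in knockout mice, with 0 of the 16 at 0 in every mouse. Their score was -0.69, -0.73, -0.60 and 0.17 in wild-type and 0.53, 0.16, 0.94 and 0.22 in knockout mice. Knockout mouse 4 was close to wild-type mouse 4 by this score and far above it by the members' score. Within the list, Ly6c2 and Ccr2 of inflammatory monocytes were highest in knockout mice 3 and 4, while Cd68 was not. Ly6c2 stood at 8.06, 4.93, 5.58 and 11.02 FPKM in wild-type and 17.5, 14.2, 54.8 and 31.6 FPKM in knockout mice, and Cd68 at 37.7, 47.5, 62.4 and 137 FPKM in wild-type and 160.1, 103, 146 and 67.3 FPKM in knockout mice. After reversal the monocyte and macrophage score was -0.31, -0.87, -0.08 and -0.51 in wild-type and 0.30, -0.03, 1.21 and 0.29 in knockout mice. The knockout mean of this score exceeded the wild-type mean by 0.88, beside 0.92 at 8 weeks. After reversal the same excess was 0.16 for the members and 0.11 for all genes. Knockout mouse 3, with the monocyte and macrophage score of 1.21, had a members' score of 0.18.

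Cholangiocyte markers were higher for 7 of 7 at 8 weeks, with a median of 0.61. Their summed level was 127, 177.2, 315 and 200.6 FPKM in wild-type and 294.6, 208, 513.9 and 484.2 FPKM in knockout mice, so knockout mice 3 and 4 were the 2 highest, as for the members. Their score was -0.79, -0.74, 0.39 and -0.03 in wild-type and 0.26, -0.27, 0.60 and 0.59 in knockout mice. Wild-type mouse 3, the lowest by the members' score, was the highest of the wild type here. After reversal 7 markers were tested, with a score of 0.11, -0.39, 0.21 and -0.24 in wild-type and 0.17, -0.28, 0.29 and 0.14 in knockout mice.

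Hepatocyte markers were higher in the knockout for 0 of 10 genes at 8 weeks, with scores of 0.62, 0.55, 0.24 and -0.21 in wild-type and -0.39, 0.03, -0.38 and -0.46 in knockout mice. Of 7 T and NK cell markers tested 7 were higher, with a summed level over the 14 of 16 markers found of 9.32 to 12.2 FPKM in wild-type and 11.9 to 20.4 FPKM in knockout mice. Of 8 markers of plasmacytoid dendritic cells, which make type I interferon, 3 were tested, 1 of them the member Bst2, and Siglech, the most specific, lay between 0.110 and 0.609 FPKM in all 8 mice. The summed level of the 7 markers found, Bst2 included, was 158.4 to 269.4 FPKM in wild-type and 256.3 to 327.1 FPKM in knockout mice. Bst2 alone made up nearly all of it, at 153.9 to 266.7 FPKM in wild-type and 252.1 to 319.9 FPKM in knockout mice. The sum thus restates that member and says little of the other markers. Stellate cell and myofibroblast markers were higher for 10 of 10, with a summed level of 239.8 to 374.7 FPKM in wild-type and 359.7 to 621 FPKM in knockout mice. Kupffer cell markers were higher for 7 of 10, with a summed level of 730.6 to 991.8 FPKM in wild-type and 825.4 to 1420 FPKM in knockout mice, lowest among the knockout mice in mouse 4. Sinusoidal endothelial markers were higher for 8 of 8, with sums of 60.3 to 102.1 and 107.2 to 158 FPKM. Neutrophil markers were higher for 7 of 9, B and plasma cell markers for 6 of 6 and immediate early genes for 7 of 8, and the summed levels of these lists overlapped between genotypes. The counts for Kupffer cells, neutrophils and immediate early genes lay near or below the share of all genes that were higher (82.6%). B and plasma cell markers had a median of 0.17, below that of all genes (0.23), and 0 of the 6 had an unadjusted p under 0.05 in limma's test. After reversal stellate cell and myofibroblast markers were again higher for 10 of 10, against 70.7% of all genes, with a median of 0.75 against 0.10. The part of these cells, cholangiocytes included, in the members' difference was not tested.

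**Figure D5:**
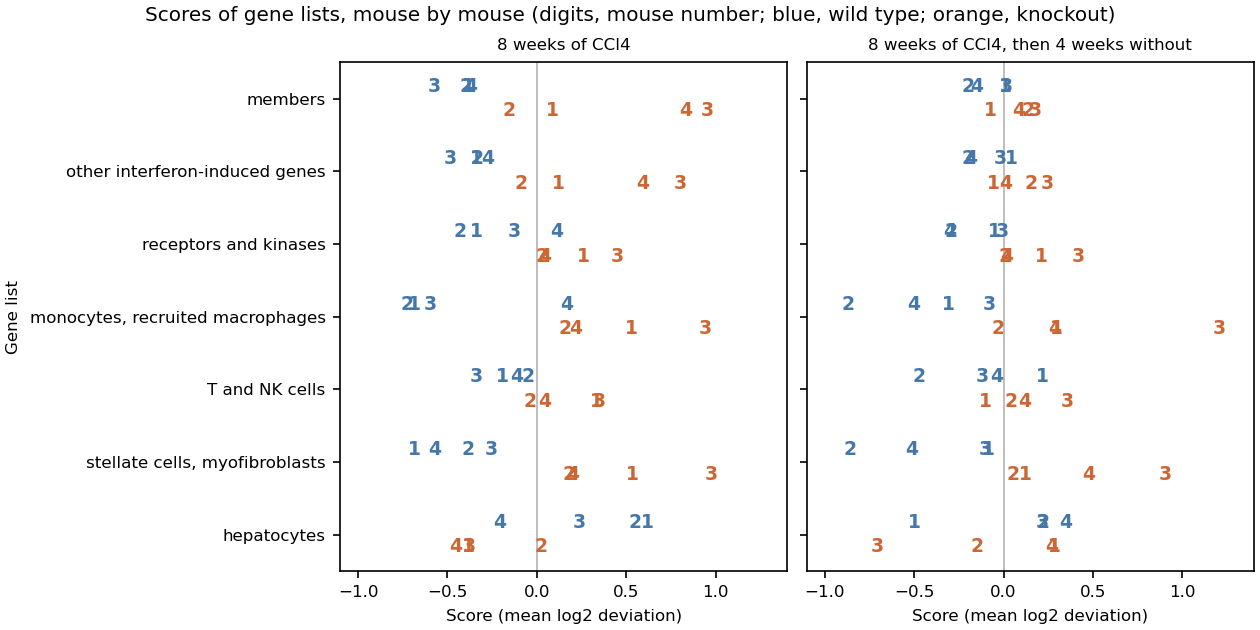
Score (x axis, mean over a list of log2(FPKM + 1) less the gene's mean over the 8 mice of a table) for the members and 6 other gene lists, with a digit for each mouse of the wild type (blue) and the knockout (orange), at 8 weeks (left) and after reversal (right). At 8 weeks knockout mice 3 and 4 lead the members and the other interferon-induced genes, while the monocyte and macrophage score of knockout mouse 4 (0.22) lies beside that of wild-type mouse 4 (0.17).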

How the data were processed

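RNA from frozen liver was sequenced in bulk from 16 mice, 4 in each of 4 groups. The deposited values are read as FPKM: the tables name no unit, TPM over a wider gene set cannot be told apart from FPKM after reversal, where the values sum higher, and per the submitters' processing notes the authors used HISAT, Cufflinks and mm10. No source used here gives versions or the strand setting. Per the labels' protocols libraries were made with the NEBNext Ultra kit at 8 weeks, and with that kit or a Vazyme VAHTS kit for reversal. Low values held no step of single reads, so depth is unknown: over 28 pairs of libraries at most 0.767% of low genes shared a ratio within 0.2%.

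Values were taken as log2(FPKM + 1). Genes whose mean reached 0.5 FPKM were tested within each table with limma 3.58.1 (R 4.3.3, statmod 1.5.0; trend and robust prior), 2-sided, adjusted by Benjamini-Hochberg over all genes tested, at 0.05. The interaction was fitted on the genes in both tables. The code was tested on simulated data. A score is a mean over genes with no test. Gene positions come from a GENCODE annotation of mm10, and promoters from RefSeq.

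The members, roles and other lists were chosen with earlier results of these data known, so no test over a list is given. A gene withheld from the text is not reported here and was left out of the lists. All values are shown for the 2 members of each role with the highest mean FPKM at 8 weeks. Groups follow the labels, which number the mice. Nothing says that mice of 1 number are a pair, and their deviations from the group means correlated between -0.656 and 0.373, so the fits are unpaired. That each library is a separate animal is taken from the labels. Alternatives were another pseudocount, other limits on the mean, median-ratio and quantile scaling, a replicate block, a plain prior, and leaving out mice.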

Additional observations from a re-analysis of the deposited data

Results flagged for a closer look

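In 182 sets of 4 values, 1 for each member, genotype and stage, the most extreme mouse was compared with the spread of its group by Dixon's ratio. Chance flags about 1 in 20 such groups, and 11 were flagged here.

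At 8 weeks these were in wild-type mice 3 and 4. Wild-type mouse 4 was high for Oasl1 (23.5 FPKM, against 9.67 to 11.35 FPKM in the other 3) and for Rsad2 (9.76 FPKM, against 3.17 to 4.16 FPKM). Wild-type mouse 3 was low for Mx1 (1.03 FPKM, against 1.95 to 1.96 FPKM) and for Xaf1 (3.998 FPKM, against 7.38 to 7.82 FPKM). No knockout mouse was flagged at 8 weeks, where knockout mice 3 and 4 were high together for most members.

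After reversal wild-type mouse 1 was high for Oas2 (14.82 FPKM, against 5.4 to 6.31 FPKM), Ifi44 (5.57 FPKM, against 4.03 to 4.2 FPKM) and Xaf1 (25.91 FPKM, against 14.22 to 15.84 FPKM), and low for Dtx3l (2.32 FPKM, against 3.9 to 4.22 FPKM). Wild-type mouse 3 was high for Oasl1 (5.31 FPKM, against 3.18 to 3.47 FPKM). Knockout mouse 3 was high for Rsad2 (1.34 FPKM, against 0.77 to 0.85 FPKM), and knockout mouse 1 was low for Ifi27 (92.99 FPKM, against 118.6 to 121.4 FPKM).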

How the results depend on the processing

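With 4 mice a group and no depth, p-values measure only the spread between these mice. At 8 weeks the direction of 44 of 46 members held in every alternative run, with Gbp7 and Ifi27 as the exceptions, and after reversal that of 20 of 45 held. These were 16 alternatives, or 15 for Ddx60 at 8 weeks and for 6 members after reversal whose mean was under 2 FPKM. At 8 weeks 1 gene passed limma's adjusted p of 0.05, and 3 did with a pseudocount of 0.1, 0 after median-ratio scaling, 0 with the replicate block, 2 with a plain prior, 2 without wild-type mice 1 and 2, and 1 to 1472 when 1 mouse was left out. The members called numbered 0 to 14 when 1 mouse was left out, most without wild-type mouse 4, and 0 in every other alternative, the replicate block included. Members without overlap at 8 weeks numbered 4 after median-ratio scaling, 8 after quantile normalization and 20 to 34 when 1 mouse was left out. After reversal median-ratio and quantile scaling gave 22 and 23 members higher, beside 49.5% and 47.6% of all genes, with medians of -0.0017 and 0.0007. Members without overlap were then 1 and 1, beside 2.1% and 1.95% of all genes. Without overlap there were 3 to 7 when 1 mouse was left out, beside 3.92% to 10.7% of all genes. Leaving out wild-type mouse 1 and knockout mice 2 and 3 gave 10, beside 17.9% of all genes. For the interaction, 0 to 1 genes passed when 1 mouse was left out. The cause of these moves was not tested.

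After reversal 19 of 45 members turned sign after median-ratio scaling, 18 after quantile normalization, and 4 to 8 when 1 mouse was left out. At 8 weeks Ifi27 did after median-ratio scaling, and Gbp7 after quantile normalization and without knockout mouse 3. Among the members described one by one, the log2 difference after median-ratio scaling was -0.0678 for Ifi27 at 8 weeks and, after reversal, -0.0180 for Bst2, -0.126 for Ifit3, -0.0990 for Igtp, -0.0952 for Irf7, -0.0054 for Psmb8 and -0.0118 for Usp18. Quantile normalization gave -0.102 for Ifit3, -0.0623 for Igtp, -0.0261 for Irf7 and -0.0134 for Usp18. Without wild-type mouse 1 and knockout mice 2 and 3, Bst2 stood at -0.0922, Ifit3 at -0.0426 and Igtp at -0.0286. Leaving out single mice after reversal gave -0.0971 to 0.0752 for Ifit3, -0.122 to 0.126 for Igtp, -0.0909 to 0.240 for Irf7, -0.0048 to 0.243 for Usp18 and -0.143 to 0.0053 for Ifi27.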
